A study of Mus musculus with 4 samples.

Results

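The genes described here are transcription factors that pattern the thalamus and the rest of the diencephalon: Tcf7l2, Lef1, Gbx2, Rora, Zic1, Zic4, Lhx9, Six3 and Barhl2. They were chosen by symbol, and 8 of the 9 were measured, among 12700 genes in all. No level of Barhl2 was analysed here, only the sequence before its start site. RNA was sequenced from the brain of C57BL/6 mice aged 9 months, either wt or Ids-ko, the mouse model of mucopolysaccharidosis type II (Hunter syndrome), in which the lysosomal enzyme iduronate 2-sulfatase is missing. Pools of 7 mice of each genotype gave 2 areas. The cerebral cortex (Cx) was the neocortex. The midbrain/diencephalon/hippocampus area (M) also took in the hypothalamus, the thalamus and, by the study's methods, the striatum. The 4 conditions were CxH and MH, cortex and M area of Ids-ko mice, and CxWT and MWT, the same areas of wt littermates, with 1 library each. The 2 areas of a genotype came from the same pool of mice, so there was no replicate of any condition.

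The thalamus relays sensory and motor signals to the cortex, and its neurons keep, into adult life, some of the transcription factors that specified them in the embryo. Tcf7l2 and Lef1 bind DNA as partners of beta-catenin at the end of the Wnt pathway, and Tcf7l2 marks neurons of the adult thalamus and habenula. Gbx2 and Lhx9 are homeodomain factors of thalamic neurons, Rora is an orphan nuclear receptor of thalamic relay neurons and cerebellar Purkinje cells, Zic1 and Zic4 are zinc finger factors of the dorsal midline, and Six3 is a homeodomain factor of the anterior forebrain that is also used by striatal neurons. The adult neocortex is not where Tcf7l2, Gbx2 or Lhx9 are known to be abundant. Tcf7l2 is also made by young oligodendrocytes.

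The sequences in front of the start sites are shown for the 3 genes with the largest ratios between libraries, Tcf7l2, Gbx2 and Lhx9, and for Zic1 and Zic4, neighbours that are transcribed away from each other. Each is the 250 bases before the start site, 5′ to 3′ on the strand of the gene, from RefSeq on GRCm38.p6, with CpG dinucleotides in capitals. In that build they lie at chr19:55741560-55741809 (+), chr1:89931177-89931426 (-), chr1:138842445-138842694 (-), chr9:91365769-91366018 (-) and chr9:91368722-91368971 (+), in the order printed.
Tcf7l2, first start: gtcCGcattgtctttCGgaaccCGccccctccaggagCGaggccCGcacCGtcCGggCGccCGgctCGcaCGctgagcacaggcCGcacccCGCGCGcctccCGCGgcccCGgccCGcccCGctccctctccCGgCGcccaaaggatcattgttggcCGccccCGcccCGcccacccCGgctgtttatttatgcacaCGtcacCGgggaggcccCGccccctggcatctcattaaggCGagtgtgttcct
Gbx2: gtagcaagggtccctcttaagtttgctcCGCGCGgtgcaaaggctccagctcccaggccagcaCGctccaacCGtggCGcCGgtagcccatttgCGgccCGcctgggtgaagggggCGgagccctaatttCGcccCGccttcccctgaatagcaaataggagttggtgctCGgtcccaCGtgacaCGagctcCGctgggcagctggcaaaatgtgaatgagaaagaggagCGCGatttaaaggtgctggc
Lhx9: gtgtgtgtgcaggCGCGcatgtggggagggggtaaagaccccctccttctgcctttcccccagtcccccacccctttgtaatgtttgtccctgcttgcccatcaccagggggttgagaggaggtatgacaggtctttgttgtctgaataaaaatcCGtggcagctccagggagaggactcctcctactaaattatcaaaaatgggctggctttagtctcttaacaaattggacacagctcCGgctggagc
Zic1: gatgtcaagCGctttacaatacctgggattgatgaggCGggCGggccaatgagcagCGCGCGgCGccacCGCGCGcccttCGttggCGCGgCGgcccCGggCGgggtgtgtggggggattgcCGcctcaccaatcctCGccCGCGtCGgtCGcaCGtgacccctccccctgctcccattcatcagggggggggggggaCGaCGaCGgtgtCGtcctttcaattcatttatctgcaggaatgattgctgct
Zic4: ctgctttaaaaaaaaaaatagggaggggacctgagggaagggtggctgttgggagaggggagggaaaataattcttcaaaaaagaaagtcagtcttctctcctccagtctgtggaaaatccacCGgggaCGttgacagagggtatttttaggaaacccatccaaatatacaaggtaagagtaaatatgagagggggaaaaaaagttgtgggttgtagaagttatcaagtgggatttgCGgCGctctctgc

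The Tcf7l2 window held 30 CpG dinucleotides, the Gbx2 window 18 and the Zic1 window 27, whereas Lhx9 and Zic4 had 4 each. The start sites of Zic1 and Zic4 were 3204 bases apart. All 9 listed genes had a window, 13 windows in all because Tcf7l2 and Lef1 have several start sites. Their ratio of observed to expected CpG had a median of 0.673, beside 0.373 over 32851 windows of the same length in RefSeq. Of the 13 windows, 12 lay above that all-window median, and Lhx9, at 0.223, was the exception. Neither the TCF/LEF letters CTTTGAA and CTTTGAT nor the homeodomain letters TAATTA nor the nuclear receptor half-site AGGTCA occurred on either strand of any of the 13 windows, and they occurred in 4.46%, 3.21%, 4.84% and 14.0% of all windows. The Zic letters CAGCAGG occurred in 2 Lef1 windows, which overlap each other, and in 8.44% of all windows. The letters TATAAA occurred in 1 window of Tcf7l2, at a later start site, and in 1 of Lef1, beside 12.4% of all windows. A match of letters is a description of the window and not a binding site.

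Levels are counts over the aligned reads of the library, written as RPM (reads per 1000000 aligned reads), and libraries were compared by the log2 ratio of their levels. A gene was called lower or higher by the rule of the study. This asks for a p-value under 0.05 by a Poisson likelihood ratio and for a log2 ratio no nearer to 0 than 0.7. With 1 library per condition this rule compares 2 libraries and not 2 conditions. Intervals are exact Clopper-Pearson 95% intervals, except that those of a Cx ratio minus an M ratio are normal approximations from the standard errors. Each ± is a standard error, and all of these cover counting error only. Reads on genes numbered from 16380080 in MWT to 23475080 in CxH, and 3 reads, the floor, correspond to 0.0779 to 0.104 RPM.

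The libraries did not all go with their labels. Ids, the disrupted gene, had 135 RPM in CxH and 354 RPM in CxWT, but 368 RPM in the library labelled MH and 155 RPM in the library labelled MWT, so its log2 ratio was -1.39 ± 0.024 in CxH vs. CxWT and 1.24 ± 0.025 in MH vs. MWT. Of 9 measured midbrain transcription factors, 4 were at or under the floor in CxH and 3 in the library labelled MH, and none in CxWT or MWT. En1, a factor of midbrain and anterior hindbrain, had 273 reads in CxWT and 126 in MWT, but 1 in CxH and 0 in MH. Summed over 18 cortical transcription factors, the levels were 947 RPM in CxH and 884 RPM in MH, against 305 RPM in CxWT and 301 RPM in MWT. So the library labelled CxWT held midbrain reads, the library labelled MH lacked most of them, and both libraries labelled Ids-ko had the higher cortical levels. The level of Ids crossed with these markers. CxH and MH, alike in the cortical factors, differed in Ids by a log2 ratio of -1.44 ± 0.023, and CxWT and MWT by 1.19 ± 0.025, whereas CxH vs. CxWT and MH vs. MWT set apart libraries that differ in both. The genotype label and the tissue that each library holds therefore cannot be told apart, and whether labels of libraries were exchanged was not tested. Below, "in Cx" and "in M" stand for CxH vs. CxWT and MH vs. MWT by label, and a direction is one between libraries. In bulk tissue, fewer cells of a type and less RNA per cell cannot be told apart either.

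All 8 genes were lower in both libraries labelled Ids-ko than in either library labelled wt. In CxH vs. CxWT all 8 were called lower, beside 11.5% of all genes called lower, with a median log2 ratio of -2.09 beside -0.09 over all genes. In MH vs. MWT 5 of 8 were called lower, beside 12.7% of all genes, with medians of -1.73 and -0.07. Tcf7l2, Gbx2, Lhx9, Zic1 and Zic4 were called in both areas. Lef1, Rora and Six3 were called in Cx and, with log2 ratios of -0.53 to -0.61, did not reach the threshold in M. The comparison in Cx uses neither M library and that in M neither Cx library, so each is also the value without the other area.

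**Figure D1:**
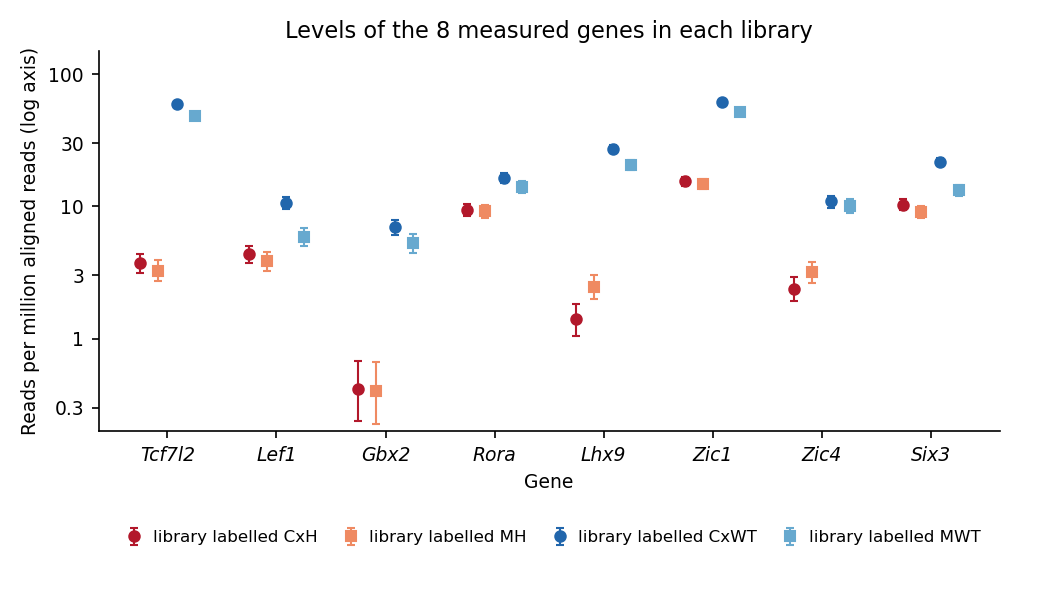
Level of each gene in RPM (log axis) in the 4 libraries, with bars for exact 95% intervals from counting. Each gene has its 2 red points (libraries labelled Ids-ko) under its 2 blue points (libraries labelled wt), with the widest gap in Tcf7l2, Gbx2 and Lhx9 and the narrowest in Rora, Six3 and Lef1.

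Tcf7l2 had 3.71 RPM (95% interval 3.13 to 4.38) in CxH, 59.3 RPM (56.7 to 61.9) in CxWT, 3.27 RPM (2.71 to 3.9) in MH and 48.0 RPM (45.5 to 50.6) in MWT. These are 143, 1993, 122 and 1389 reads, so neither low value is near the floor. The gene lies on chromosome 19, from 55816300 to 56008144 on the plus strand of NCBI37. CxWT was 16.0-fold (13.5 to 19.0) above CxH and MWT 14.7-fold (12.2 to 17.8) above MH. The log2 ratios were -4.0 ± 0.12 in Cx and, in M, -3.88 ± 0.14, rank 38 and rank 29 from the lowest among 12700 genes. The Cx ratio minus the M ratio was -0.12 (95% interval -0.48 to 0.24), so no difference between areas was detectable from counting. CxH and MH did not differ beyond counting either, at a log2 ratio of 0.19 (-0.17 to 0.55), whereas CxWT was above MWT by 0.31 (0.21 to 0.4). Oligodendrocyte genes summed to 5010 RPM in CxH, 9390 RPM in CxWT, 5170 RPM in MH and 7420 RPM in MWT, mostly from Mbp, a gene of mature myelin, and their part in the Tcf7l2 ratios was not tested.

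Lef1, the other Wnt factor, differed far less. It had 4.34 RPM (3.7 to 5.05) in CxH, 10.5 RPM (9.46 to 11.7) in CxWT, 3.85 RPM (3.25 to 4.54) in MH and 5.87 RPM (5.02 to 6.83) in MWT. The gene lies on chromosome 3, from 130813389 to 130927274 on the plus strand. CxWT was the high library, 1.79 times MWT, and the other libraries lay closer together. Its ratio was -1.28 ± 0.14 in Cx and, in M, -0.61 ± 0.16, and the difference of -0.67 (-1.09 to -0.26) between these ratios was larger than counting error. Lef1 is also used by endothelial cells of the brain, and the 15 measured endothelial genes summed to 477 RPM in CxH, 388 RPM in CxWT, 419 RPM in MH and 387 RPM in MWT. Their part in the Lef1 ratios was not tested.

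Gbx2, needed for thalamic neurons to differentiate and send axons to the cortex, was the least abundant of the genes in CxH, MH and MWT per transcript length. It had 0.416 RPM (0.238 to 0.675) in CxH, 6.96 RPM (6.1 to 7.91) in CxWT, 0.401 RPM (0.225 to 0.662) in MH and 5.25 RPM (4.45 to 6.16) in MWT. With 16 reads in CxH and 15 in MH the low values lie above the floor of 3 reads, and their intervals overlap almost wholly. The gene lies on chromosome 1, from 91824537 to 91829865 on the minus strand. CxWT was 16.7-fold (10.1 to 29.8) above CxH and MWT 13.1-fold (7.68 to 23.9) above MH, log2 ratios of -4.07 ± 0.37 and -3.71 ± 0.39. In GENCODE vM1, 32.4% of the exonic bases of Gbx2 are shared with D130058E05Rik on the opposite strand, and the sources used here do not say whether counting used strand, so reads of the pair cannot be told apart. RefSeq lists D130058E05Rik as a synonym of Gbx2.

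Lhx9 had 1.40 RPM (1.05 to 1.83) in CxH, 27.1 RPM (25.4 to 28.9) in CxWT, 2.46 RPM (1.98 to 3.02) in MH and 20.5 RPM (18.9 to 22.2) in MWT, from 54, 912, 92 and 594 reads. It lies on chromosome 1, from 140721763 to 140745153 on the minus strand. Its Cx ratio was the lowest of the 8, at -4.27 ± 0.20 or 19.3-fold (14.7 to 25.9), and its M ratio was -3.06 ± 0.16 or 8.33-fold (6.68 to 10.5). The difference of -1.21 (-1.72 to -0.71) between the areas was the widest among these genes. Part of it lay between the libraries labelled Ids-ko, where Lhx9 was called lower in CxH than in MH at -0.81 ± 0.25, the 1 call among the 8 genes in that comparison, beside 3.5% of all genes. That call was lost with the correction for GC content and length (-0.56), with a log2 threshold of 1 and with an assumed variation of 0.2 between pools.

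Rora had 9.38 RPM (8.43 to 10.4) in CxH, 16.4 RPM (15.0 to 17.8) in CxWT, 9.15 RPM (8.21 to 10.2) in MH and 13.9 RPM (12.6 to 15.4) in MWT. The gene lies on chromosome 9, from 68501593 to 69236053 on the plus strand. Its log2 ratios were the smallest in Cx, -0.80 ± 0.098, and were -0.61 ± 0.11 in M, where it was not called. In the libraries labelled wt it was also among the lowest per transcript length, at 1.5 RPKM (RPM per kilobase of the longest coding transcript) in CxWT and 1.28 RPKM in MWT. Correcting the ratios for the GC content and length of the transcripts took the Cx ratio to -0.47 and ended the call, as did a log2 threshold of 1 and an assumed variation of 0.2 between pools.

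Zic1 and Zic4 sit side by side on chromosome 9, Zic1 from 91252896 to 91260648 on the minus strand and Zic4 from 91257251 to 91284186 on the plus strand, and share 60 exonic bases in GENCODE vM1. Zic1 had 15.5 RPM (14.2 to 16.7) in CxH, 61.7 RPM (59.0 to 64.4) in CxWT, 14.8 RPM (13.6 to 16.1) in MH and 51.2 RPM (48.7 to 53.9) in MWT. Zic4 had 2.39 RPM (1.93 to 2.93) in CxH, 10.9 RPM (9.77 to 12.0) in CxWT, 3.16 RPM (2.61 to 3.78) in MH and 10.1 RPM (8.96 to 11.3) in MWT. Both were high in the libraries labelled wt and low in those labelled Ids-ko, with neither gene near the floor. The ratios were -2.0 ± 0.067 for Zic1 and -2.18 ± 0.17 for Zic4 in Cx, and -1.79 ± 0.072 and -1.68 ± 0.16 in M, so the 2 neighbours had similar ratios in each area. Zic1 is also made by cerebellar granule cells. Of 7 measured cerebellar genes, 4 were called lower in CxH than in CxWT and 3 in MH than in MWT, with 1 called higher in the latter, beside 11.5% and 12.7% of all genes called lower and 12.3% called higher in M. Their sums were 90.3 RPM in CxH, 152 RPM in CxWT, 94.6 RPM in MH and 167 RPM in MWT. The part of this in the Zic ratios was not tested.

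Six3 had 10.3 RPM (9.35 to 11.4) in CxH, 21.7 RPM (20.2 to 23.3) in CxWT, 9.13 RPM (8.18 to 10.1) in MH and 13.2 RPM (11.9 to 14.6) in MWT. It lies on chromosome 17, from 86012948 to 86031153 on the plus strand. As with Lef1, CxWT alone stood out. Six3 was called in Cx at -1.07 ± 0.09 and had -0.53 ± 0.11 in M, not called, a difference of -0.54 (-0.82 to -0.27). After the correction for GC content and length the M ratio was -0.92, past the threshold. Of 11 measured genes of striatal neurons, where Six3 is also used, 9 were called higher in CxH than in CxWT, beside 9.46% of all genes called higher. In MH vs. MWT 9 were called higher, beside 12.3% of all genes, and 1, Tac1, was called lower. Their part in the Six3 ratios was not tested. Ppp1r1b, the dopamine-regulated phosphatase inhibitor DARPP-32, had 320 RPM in CxH, 87.2 RPM in CxWT, 239 RPM in MH and 77.8 RPM in MWT.

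**Figure D2:**
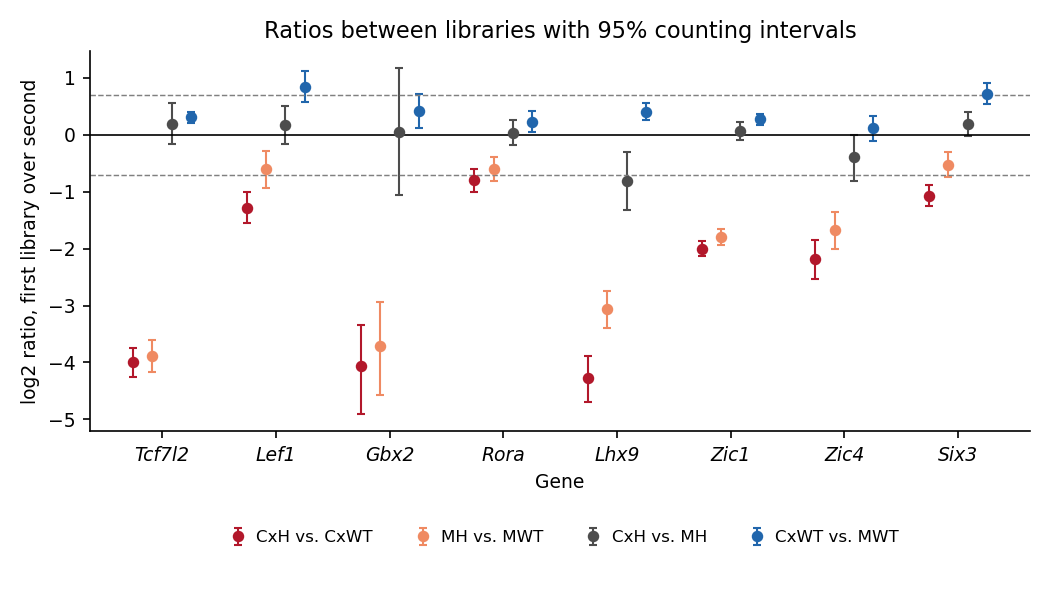
Log2 ratio of each gene in 4 comparisons between libraries, with 95% intervals from counting and dashed lines at the threshold of 0.7. Ratios of CxH vs. CxWT (dark red) and MH vs. MWT (orange) lie under 0 for every gene, from -0.53 to -4.27, while ratios between areas (grey and blue) stay within 0.84 of 0.

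Between areas of one label the genes differed little. In CxH vs. MH the median log2 ratio of the 8 genes was 0.06, beside 0.01 over all genes, and for the 7 genes other than Lhx9 the interval of the ratio took in 0. In CxWT vs. MWT all 8 were higher in CxWT, with a median of 0.35 beside 0.04 over all genes, and the interval left out 0 for all but Zic4 (-0.12 to 0.33). Of these, 2 were called, Lef1 at 0.84 ± 0.13 and Six3 at 0.72 ± 0.091, beside 7.54% of all genes. Both calls were lost with a log2 threshold of 1 and with the assumed variation, and that of Six3 also with each other scaling of the counts and with the GC and length correction. Among the genes not called, Gbx2 went from 0.41 to 0.11 with that correction. With column totals Rora went from 0.23 to 0.14 and Zic4 from 0.11 to 0.01. Intervals were not computed for these settings. By the labels the thalamus belongs to the M area, yet Tcf7l2 had 59.3 RPM in CxWT against 48.0 RPM in MWT. The order of the libraries was CxWT, MWT, CxH, MH for 6 of the genes, while for Lhx9 and Zic4 MH stood above CxH. The step from MWT to the next library down was larger than counting error for every gene.

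The remaining pairs of libraries share a library with the comparisons above and give no independent support. In CxH vs. MWT 5 of the 8 were called lower, beside 15.1% of all genes, with Tcf7l2 at -3.69 ± 0.13, Gbx2 at -3.66 ± 0.38 and Lhx9 at -3.87 ± 0.21, and Six3, Lef1 and Rora, not called, at -0.35 ± 0.10, -0.44 ± 0.16 and -0.57 ± 0.10. In MH vs. CxWT all 8 were called lower, beside 8.89% of all genes, with Tcf7l2 at -4.18 ± 0.13, Gbx2 at -4.12 ± 0.38 and Lhx9 at -3.46 ± 0.16. In the same pairs the log2 ratio of Ids was -0.20 ± 0.029 and 0.06 ± 0.018. A relation between Ids and the ratios of the factors was not tested.

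An additive model over the 4 libraries, with an effect of the area label and an effect of the genotype label, left 1 residual degree of freedom. That residual sets CxH and MWT, with 135 and 155 RPM of Ids, against CxWT and MH, with 354 and 368 RPM. The spread used by the test therefore holds any difference that goes with Ids, and it is not a spread between replicates. By edgeR's quasi-likelihood test with Benjamini-Hochberg adjustment over all genes, no gene was called for the area label (0 of 12700, 0.0%), with 615 at an unadjusted p under 0.05, none of them among the 8, whose adjusted p ran from 0.82 to 0.95. DESeq2 called 1 gene, not among the 8. For the genotype label, 9.9% of all genes were called lower with the Ids-ko label, and all 8 were among them. The adjusted p of edgeR was 0.00014 for Tcf7l2 at a log2 effect of -3.94, 0.00047 for Lhx9 at -3.64, 0.00051 for Gbx2 at -3.88, 0.00059 for Zic1 at -1.90 and 0.0023 for Zic4 at -1.93. It was 0.033 for Six3 at -0.80, 0.038 for Rora at -0.70 and 0.042 for Lef1 at -0.95, each lower in 2 of 2 areas. DESeq2 on the same model called 6 of the 8, without Lef1 and Rora, beside 1068 of 12700 genes called lower. These p-values are too small for a statement on genotype, since by the labels both areas came from the same mice. The tissue differs with the label as well. Ids differed between the 2 libraries of each label, so that they share a pool rests on the labels alone.

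Per kilobase of the longest coding transcript, the order among the genes differed between labels. Tcf7l2 led in CxWT and MWT, with 13.8 and 11.2 RPKM, followed by Zic1 with 11.0 and 9.14 RPKM and Lhx9 with 5.49 and 4.16 RPKM. In CxH and MH, Zic1 led with 2.76 and 2.64 RPKM, then Six3 with 1.93 and 1.71 RPKM and Lef1 with 1.25 and 1.11 RPKM. Tcf7l2 took rank 4 in CxH and rank 6 in MH, and Lhx9 rank 7 in both.

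The closest relatives of these factors were taken as a list of 15 paralogues, of which 8 were measured: 3 were called lower and 1 higher in CxH vs. CxWT, and 1 lower and 3 higher in MH vs. MWT. Over all genes the shares were 11.5% lower and 9.46% higher in Cx and 12.7% and 12.3% in M, so a single call of 8 is near the background. Lhx2, the LIM homeodomain factor of cortical progenitors and hippocampus that is closest to Lhx9, went the opposite way, with 43.5 RPM in CxH, 11.1 RPM in CxWT, 31.7 RPM in MH and 8.57 RPM in MWT, log2 ratios of 1.97 ± 0.083 and 1.89 ± 0.10. Zic2 had ratios of -1.10 ± 0.077 in Cx, called, and -0.56 ± 0.084 in M, not called. Tcf7, a relative of Tcf7l2 best known from T cells, had 0.63 ± 0.17 in Cx, not called, and 0.81 ± 0.21 in M, called higher. Tcf7l1, a repressor of the same family, had 0.13 ± 0.18 in Cx, not called, and 0.82 ± 0.27 in M, called higher. Rorb, known from cortical layer 4 and from thalamus, had 0.03 ± 0.15 and 0.16 ± 0.17, and Six5 had 0.02 ± 0.20 and 0.46 ± 0.25, with no call in either area.

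Other genes of the Wnt pathway were counted as a list. Of 22 measured (Wnt co-factors, repressors, feedback targets and R-spondins), 2 were called lower and 3 higher in Cx, and 1 lower and 6 higher in M. Over all genes 11.5% were called lower and 9.46% higher in Cx, near the shares of this list, against 12.7% lower and 12.3% higher in M. The list had median log2 ratios of 0.12 and 0.27 beside -0.09 and -0.07 over all genes. The highest and lowest ratios, of genes named after their values were seen, were those of Rspo2, a secreted Wnt enhancer, called higher at 2.60 and 2.74, and of Lgr5, its receptor, called lower at -1.5 and -1.53. Ctnnb1, which encodes beta-catenin, the partner of Tcf7l2 and Lef1, had 320 RPM in CxH, 347 RPM in CxWT, 311 RPM in MH and 417 RPM in MWT, ratios of -0.12 ± 0.019 and -0.42 ± 0.019 with no call. Apc, of the complex that degrades beta-catenin, had 0.15 ± 0.022 and 0.58 ± 0.022, and Gsk3b, its kinase, -0.23 ± 0.032 and -0.18 ± 0.034, again with no call. Bcl9, a co-activator of beta-catenin, had -0.18 ± 0.053 in Cx and was called higher in M at 0.89 ± 0.063.

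Most genes that mark mature thalamic neurons were called lower as well. Of 20 measured, 19 were called lower in CxH vs. CxWT and 16 in MH vs. MWT, none higher, beside 11.5% and 12.7% of all genes called lower, with medians of -1.96 and -1.52, and their levels summed to 690 RPM in CxH, 1890 RPM in CxWT, 753 RPM in MH and 1700 RPM in MWT. Slc17a6, the vesicular glutamate transporter VGLUT2 of thalamic and other subcortical neurons, had 10.5 RPM in CxH, 208 RPM in CxWT, 21.8 RPM in MH and 205 RPM in MWT. Its ratios of -4.30 ± 0.074 and -3.23 ± 0.054 were close in size to those of Lhx9. Adarb1, an RNA editing enzyme, had ratios of -1.04 ± 0.019 and -0.91 ± 0.02, and Amotl1, a junction protein, -1.83 ± 0.042 and -1.52 ± 0.043, all called. Pdp1, a phosphatase of the pyruvate dehydrogenase complex, had -0.30 ± 0.033 and -0.35 ± 0.032 and was the gene not called in Cx. In M it was not called either, nor were Ptpn3 at -0.64, Grm4 at -0.19 and Cacna1g at 0.12, which are named after their values were seen.

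Counts for neighbouring parts of the brain are to be read against all genes, of which 11.5% were called lower and 9.46% higher in Cx, while 12.7% were lower and 12.3% higher in M. Of 11 measured habenular genes, 7 were called lower and 1 higher in Cx, and 8 lower and 1 higher in M. Slc5a7, the choline transporter, had 4.49 RPM in CxH, 16.8 RPM in CxWT, 4.6 RPM in MH and 21.0 RPM in MWT, and Nr4a2, a nuclear receptor, was the gene called higher in both, at 1.12 ± 0.088 and 2.13 ± 0.11. Of 12 prethalamic factors, 4 were called lower and 3 higher in each area. Esrrg, an orphan nuclear receptor, was lower at -1.33 ± 0.076 and -1.05 ± 0.077, and Meis2, a homeodomain factor, had 0.81 ± 0.038 in Cx, called higher, and 0.50 ± 0.039 in M, not called. Of 7 hypothalamic factors, 6 were called lower in Cx and 5 in M, with Nkx2-1 at -2.18 ± 0.26 and -1.64 ± 0.29, and Lhx6, also a factor of cortical interneurons, called higher in Cx at 0.72 ± 0.099. Of 9 midbrain factors, 8 were called lower in each area, with Tal1 at -1.99 ± 0.17 and -2.62 ± 0.20 and Otx2 at -1.97 ± 0.17 and -1.57 ± 0.16. Gata2 was the factor not called, at -0.55 ± 0.17 in Cx and 0.04 ± 0.20 in M. For factors at or under the floor in both CxH and MH, such as En1, the coverage filter set the direction, so their calls carry no information.

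Most cortical transcription factors were called higher. Of 18, none was called lower, 15 were called higher in CxH vs. CxWT and 16 in MH vs. MWT, beside 9.46% and 12.3% of all genes called higher, with medians of 1.75 and 1.67. Mef2c, an activity-dependent factor of cortical neurons, had 209 RPM in CxH, 51.4 RPM in CxWT, 211 RPM in MH and 59.6 RPM in MWT. Of 11 hippocampal genes, 1 was called lower in Cx, near the 11.5% of all genes, and 3 higher, and 7 were called higher in M. Of 14 oligodendrocyte genes, 7 were called lower in Cx, and 3 lower and 1 higher in M, beside 11.5% of all genes called lower in Cx and 12.7% lower and 12.3% higher in M, with Mobp, a protein of myelin, called in both at -0.87 ± 0.016 and -0.71 ± 0.017. The part of any of these in the ratios of the diencephalic factors was not tested.

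**Figure D3:**
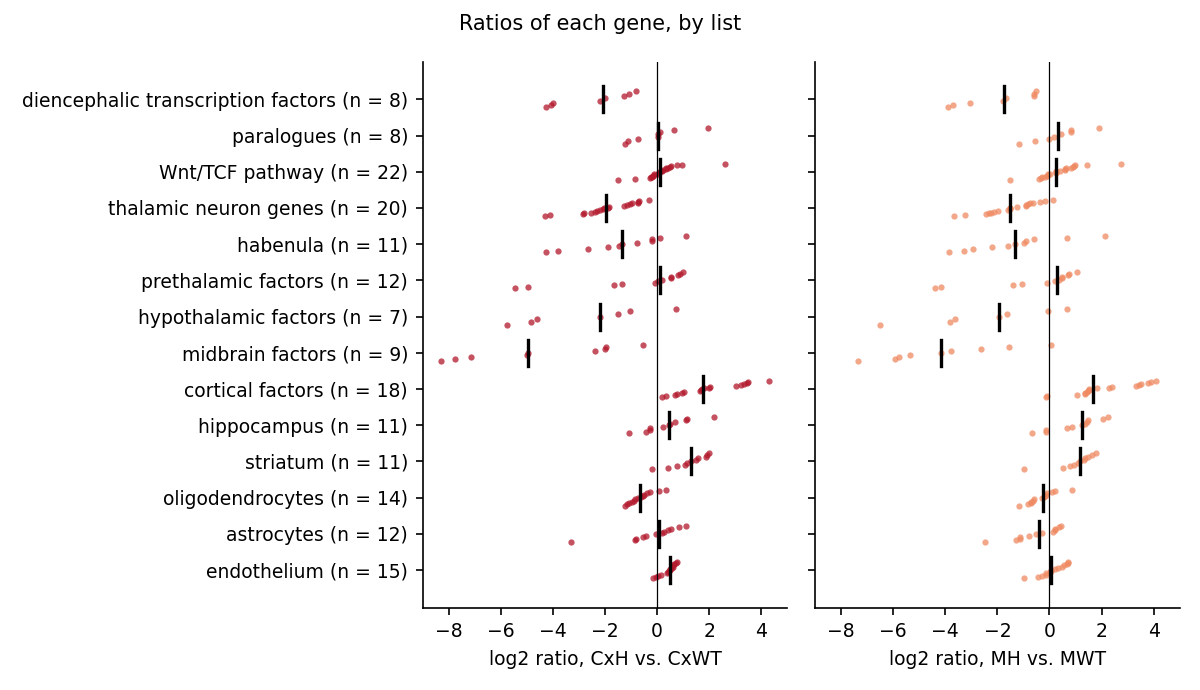
Log2 ratio of every measured gene of 14 lists in CxH vs. CxWT (left) and MH vs. MWT (right), 1 point per gene, with a black bar at the median of each list; a count of 0 was set to 1. Diencephalic, thalamic, hypothalamic and midbrain lists have their medians under -1.5 and cortical and striatal lists above 1, while the median of the Wnt pathway lies near 0.

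**Figure D4:**
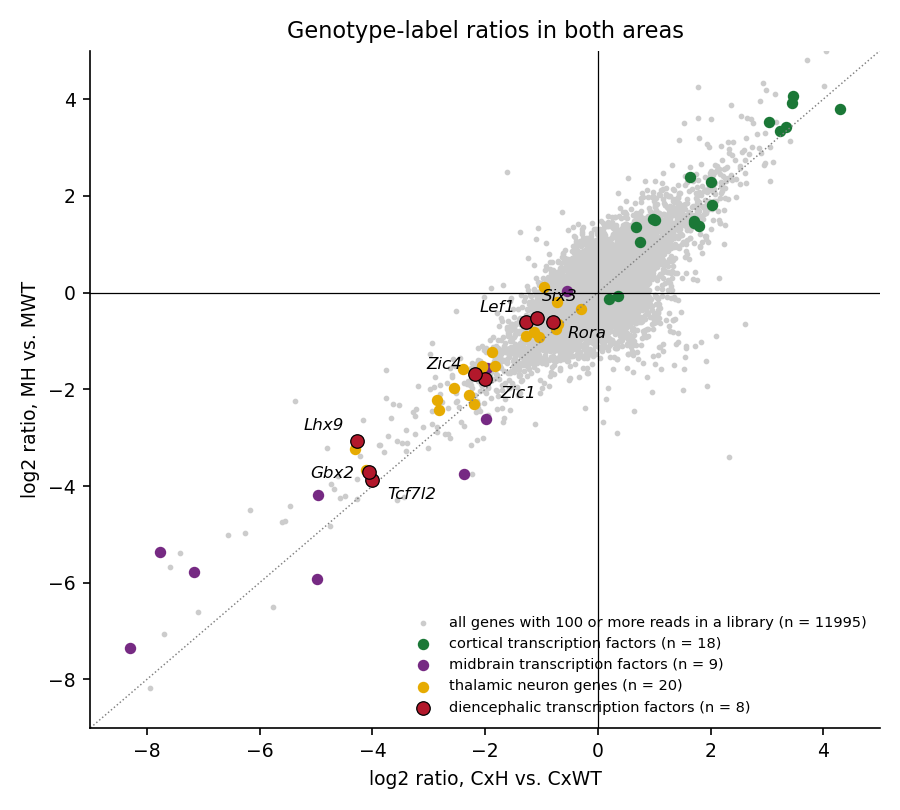
Log2 ratio in MH vs. MWT against that in CxH vs. CxWT for 11995 genes with at least 100 reads in a library (2 lie outside the axes), with the dotted line at equal ratios. The 8 diencephalic factors all lie at the lower left, thalamic neuron genes and midbrain factors spread around them, and the cortical factors lie mostly in the upper right. The ratios of the axes share no library, but by the labels they share both pools of mice.

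The genes whose levels over the 4 libraries ran most like those of Tcf7l2 were looked for among 11994 other genes with at least 100 reads in a library, by the distance between centred log2 RPM profiles. With only 4 libraries this is a coarse measure. Gbx2 came first, at a distance of 0.13, and Lhx9 was rank 19, at 0.76. After Gbx2 came Ebf3, Gal, Slc18a2, Irx1, Sytl4, Dlk1, Gabrq, Gpr151 and AW551984, at distances of 0.44 to 0.62. Gal encodes the neuropeptide galanin, Slc18a2 the vesicular monoamine transporter and Gpr151 a receptor of habenular neurons, with 231 reads in CxWT and 189 in MWT against 19 in CxH and 25 in MH. Zic1 was rank 116 and Zic4 rank 120, at 2.04 and 2.05, and Lef1, Six3 and Rora were rank 572, 802 and 1016.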

How the data were processed

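RNA was measured in 4 libraries, 1 per condition. Per the study's methods, the authors sequenced SOLiD reads, aligned them to NCBI37/mm9 with PASS, accepting up to 2 mismatches, and deposited raw counts per gene of reads that fell on 1 gene alone, where coverage of the gene passed 50%. The annotation and use of strand are not given in the sources used here. Entrez identifiers were matched to RefSeq symbols for 12690 of 12700 genes, and positions and lengths were taken from GENCODE vM1 (12423 genes, same build). Totals for scaling were the aligned reads of the study's methods, of which 56.6% to 61.0% lay on genes. A count of 0 was set to 1 for ratios only. Calls used the Poisson likelihood ratio test and thresholds of the authors. The second design was edgeR's quasi-likelihood additive fit (common biological coefficient of variation 0.158). Tools were R 4.3.3, edgeR 4.0.16, DESeq2 1.42.0, Python 3.11.15, numpy 2.4.6, pandas 2.3.3 and scipy 1.17.1. Both tests were run on simulated counts. Those for the Poisson test held no variation between pools, and those for the additive fit held no effect that crosses the labels. The simulations therefore say nothing on how the tests behave under either.

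The genes and lists were chosen with earlier results of these data known. Named are the 9 factors, Ids, all measured paralogues, up to 4 genes with most reads from each other list, and the 10 genes nearest to Tcf7l2. Besides these, 2 Wnt genes and 3 thalamic genes are named outside this rule, after their values were seen. A few of these genes are not reported here, though all entered the counts and medians. Lists of pericytes and meninges, astrocytes, and ependyma and choroid plexus were counted too. Over all genes 11.5% were called lower and 9.46% higher in Cx, against 12.7% and 12.3% in M. In Cx, 1 of 11, 3 of 12 and 4 of 12 of their genes were called lower and 3, 2 and 5 higher, and in M 0, 5 and 5 lower and 0, 0 and 3 higher. Of 15 endothelial genes, 2 were called higher in Cx, and 1 lower and 2 higher in M. Alternatives were other scalings, a filter on low counts, a log2 threshold of 1, Benjamini-Hochberg adjustment, edgeR's exact test at a coefficient of variation set to 0.2, 0.5 added to every count, and a correction for GC content and length, available for 12232 genes and all 8 measured factors.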

Additional observations from a re-analysis of the deposited data

Results flagged for a closer look

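Among 85 named genes, 2 were called in opposite directions in the 2 areas, which is what drew attention to them. Ids, the disrupted gene, had a log2 ratio of -1.39 in CxH vs. CxWT and 1.24 in MH vs. MWT. Gfap, the intermediate filament of astrocytes, had 1.11 and -1.13. Gfap had 603 RPM in CxH and 555 RPM in MWT, the libraries low in Ids. It had 280 RPM in CxWT and 253 RPM in MH, the libraries high in Ids. The areas here are those of the labels, with which the libraries did not all go. With 1 library per condition the difference between areas was not tested for either gene. None of the 8 diencephalic factors was among them.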

How the results depend on the processing

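By the labels, the area effect of the additive fit is paired by pool, and with 1 library per condition no fit with a replicate number was made. Over all alternatives tried, the ratios of the 8 factors in CxH vs. CxWT and in MH vs. MWT kept their sign, with Tcf7l2 between -4.01 and -3.85 in Cx and between -3.94 and -3.72 in M. Counts of called factors in these 2 comparisons, and by genotype label, stayed within 1.5 times. For single factors, 14 values lost their call, 1 gained one, 2 turned sign and 271 did none of these, and the cause was not tested. The count in CxH vs. MH (lower, Lhx9 alone, 1 as reported) was 0 with a log2 threshold of 1, with the assumed variation of 0.2 and with the GC and length correction. Over all genes the lower calls there went from 135 to 34, 40 and 104, in that order. The count in CxWT vs. MWT (higher, 2 as reported) was 1, without Six3, with column totals, TMM factors, DESeq2 size factors and the GC and length correction, and 0 with a threshold of 1 and with the assumed variation. Over all genes the higher calls there went from 690 to 480, 563, 563, 233, 194 and 359, in that order. Signs turned in CxH vs. MH only, to -0.07 for Gbx2 with the GC and length correction and to -0.01 for Rora with column totals, both from values near 0. Scaling also moved the balance of calls over all genes: of those in CxH vs. CxWT 54.8% were lower, and 44.0% with TMM factors. In CxH vs. MH the share was 30.4% and 41.6% with column totals, and in CxWT vs. MWT 28.0% and 44.8%. GC content and log2 ratio correlated across genes (Spearman, genes not being independent) at 0.461 in Cx and 0.487 in M. This correlation was stronger between areas of one label, with 0.629 for the pair labelled wt and 0.582 for the pair labelled Ids-ko. Depth limits Gbx2 most, with 15 and 16 reads in the low libraries.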
